A study of Mus musculus with 12 samples.

Results

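Otx2, Pou3f1, Foxd3, Zic2, Sall2 and Gbx2 are transcription factor genes associated with formative pluripotency. They were listed by symbol, with no cut on their values but with earlier results of these data known. They are 6 of the 55487 genes in the whole-genome table of gene counts. All 6 passed the filter on low counts, which left 19235 genes for testing.

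RNA was sequenced in 12 libraries from a female C57BL6/CAST hybrid line of mouse embryonic stem (ES) cells, whose parental genomes differ at many positions so that part of the reads can be given to 1 parent. The 4 groups of 3 libraries were wild type at day 0, SIRT7-KO (knockout of Sirt7, a sirtuin deacylase gene) at day 0, wild type at day 7 and SIRT7-KO at day 7. Per the labels' protocols, cells were kept in leukaemia inhibitory factor (LIF, a cytokine that holds mouse ES cells undifferentiated) until day 0 and without it for the 7 days that followed. The comparisons ask how the genes differ between day 0 and day 7 without LIF and whether loss of Sirt7 alters that. No library was taken between these days. A rise or fall that came and went within the 7 days would therefore not be seen. Nothing in the labels says whether each genotype is 1 clone, which part of Sirt7 was deleted, or whether replicates were separate cultures, so p-values measure the spread between these libraries, which may be technical. No day 7 group was kept in LIF, so LIF withdrawal and time in culture cannot be told apart. A separate treatment label, LIF or None, runs by replicate and genotype and not by day, and was not used.

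Libraries held 25190483 to 69079368 counts. Levels are CPM, the usual depth-scaled read count of RNA-seq, on library sizes adjusted by edgeR's TMM method. Sirt7 itself was at 8.03 to 12.7 CPM in wild type and at 16.9 to 23.8 CPM in the libraries labelled knockout at day 0, and at 10.2 to 15.3 against 20.1 to 25.1 CPM at day 7. Its level therefore did not fall in the libraries labelled knockout, and they are named by their label throughout. The 5 ES cell markers (Pou5f1, Sox2, Nanog, Zfp42, Esrrb) were all detected, with a summed level of 4370 to 4660 CPM in wild type and 4400 to 4610 CPM in libraries labelled knockout at day 0.

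Formative pluripotency is the state between the naive epiblast of the blastocyst and the primed epiblast about to gastrulate. Cells in it lower naive factors such as Klf4 and Esrrb, raise factors such as Otx2 and Pou3f1, and become competent to form both somatic lineages and germ cells. Several of the factors are used again later: Otx2 in the head and forebrain, Gbx2 in the hindbrain, Zic2 in the neural plate, Foxd3 in the neural crest and Pou3f1 in neural and Schwann cells.

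The genes lie on 3 autosomes in GRCm38 (GENCODE vM21). Otx2 (ENSMUSG00000021848, chr14:48657677-48673819, minus strand) encodes a bicoid-class homeodomain factor, and Gbx2 (ENSMUSG00000034486, chr1:89927956-89931179, minus strand) a homeodomain factor that LIF signalling through Stat3 induces in ES cells. Foxd3 (ENSMUSG00000067261, chr4:99656299-99658622, plus strand) encodes a forkhead factor and Pou3f1 (ENSMUSG00000090125, chr4:124656807-124660655, plus strand) a POU factor, each in 1 exon. Zic2 (ENSMUSG00000061524, chr14:122475435-122479852, plus strand) and Sall2 (ENSMUSG00000049532, chr14:52311172-52328762, minus strand) encode zinc finger factors of the Zic and spalt families.

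Promoters from RefSeq on GRCm38.p6 were matched for 4 of the 6 genes, Otx2, Foxd3, Sall2 and Gbx2. Foxd3 and Gbx2 are shown because they had the largest falls of the 6, and both Sall2 starts because the form of its transcript differed between days. Each window is the 250 bases before a RefSeq start site, read 5′ to 3′ on the strand of the gene, of which the upstream Sall2 window is printed for the 158 bases that precede the GENCODE start. Capitals mark matches to motifs searched on both strands: the E-box CACGTG, the bicoid-class homeodomain site TAATCC, the general homeodomain core TAATTA, the octamer core ATGCAAA for POU factors, the forkhead core GTAAACA, the GC box GGGCGG and the TATA sequence TATAAA. No matches overlapped in these windows.
Foxd3, chr4:99656049-99656298, plus strand: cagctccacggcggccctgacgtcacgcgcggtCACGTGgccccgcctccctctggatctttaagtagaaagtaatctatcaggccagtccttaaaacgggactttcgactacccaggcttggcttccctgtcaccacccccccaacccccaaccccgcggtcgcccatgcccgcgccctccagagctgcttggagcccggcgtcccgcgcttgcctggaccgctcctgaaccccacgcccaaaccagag
Gbx2, chr1:89931177-89931426, minus strand: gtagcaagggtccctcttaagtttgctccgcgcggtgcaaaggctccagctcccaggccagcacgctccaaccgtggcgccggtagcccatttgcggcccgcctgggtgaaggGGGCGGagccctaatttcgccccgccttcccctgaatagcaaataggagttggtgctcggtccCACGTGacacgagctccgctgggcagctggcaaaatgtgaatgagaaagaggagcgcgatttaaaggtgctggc
Sall2 upstream start, chr14:52328763-52328920, minus strand: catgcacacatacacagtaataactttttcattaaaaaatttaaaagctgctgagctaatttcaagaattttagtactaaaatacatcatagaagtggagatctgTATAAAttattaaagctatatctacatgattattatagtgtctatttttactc
Sall2 downstream start, chr14:52316324-52316573, minus strand: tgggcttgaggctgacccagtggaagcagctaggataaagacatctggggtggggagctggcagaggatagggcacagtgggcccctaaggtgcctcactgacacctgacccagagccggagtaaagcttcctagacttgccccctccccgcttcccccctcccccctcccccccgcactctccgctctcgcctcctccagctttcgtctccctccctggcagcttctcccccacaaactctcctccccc
The Foxd3 window had 65.6% G and C with 21 CpG sites, and an E-box match began at position -217 from the start site. The Gbx2 window had 61.6% G and C with 18 CpG sites, a GC box match at -137 and an E-box match at -74. Over 32851 promoter windows of the same length the median was 52.4% G and C with 6 CpG sites. An E-box match was present in 6.02% of them and a GC box match in 32.7%. The Sall2 windows stood apart from each other: over its full 250 bases the upstream one had 28.0% G and C, no CpG site and a TATA match at -145 from the RefSeq start (12.4% of all windows hold one), and the downstream one 64.4% G and C with 6 CpG sites and no match.

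During 7 days without LIF, Foxd3, Gbx2, Otx2 and Zic2 fell and Pou3f1 and Sall2 rose, in wild type and in libraries labelled knockout alike. The falls in wild type ran from 1.78-fold for Zic2 to 103-fold for Foxd3. All 6 passed edgeR's quasi-likelihood test at a Benjamini-Hochberg adjusted p of 0.05 in each genotype. Most genes did: 65.1% of those tested were called in wild type (32.9% up, 32.1% down) and 63.4% in libraries labelled knockout (31.1% up, 32.3% down), so a call does not set these genes apart. The groups of day 0 and day 7 did not overlap for any of the 6, which held for 72.0% of genes in wild type (36.4% up, 35.6% down) and 69.5% in libraries labelled knockout (34.6% up, 34.9% down). The median log2 change of the 6 was -1.12 in wild type and -1.46 in libraries labelled knockout, against 0.01 and -0.02 over all genes tested. In bulk RNA, fewer cells of a type and less RNA per cell cannot be told apart.

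Foxd3, a forkhead factor needed to maintain the epiblast, was at 102, 66.8 and 68.5 CPM in wild type replicates 1, 2 and 3 at day 0. At day 7 it was at 0.786, 0.772 and 0.735 CPM. The libraries labelled knockout went from 88, 84.2 and 65.8 CPM to 0.208, 0.405 and 1.06 CPM. All 6 day 0 libraries were far above all 6 day 7 libraries, where only 8 to 52 reads remained. The log2 change was -6.68 (SE 0.42, adjusted p 1.13e-07 by edgeR) in wild type, a 103-fold fall, and -7.17 (SE 0.44, adjusted p 9.65e-08) in libraries labelled knockout.

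Gbx2 was at 57.8, 35.9 and 44.5 CPM in wild type at day 0 and at 0.994, 1.59 and 1.08 CPM at day 7. The libraries labelled knockout were at 28.6, 31.9 and 29.0 CPM at day 0 and at 0.778, 0.844 and 0.645 CPM at day 7. The days did not overlap in either genotype, and within each day the libraries labelled knockout were the lower group. The log2 change over 7 days was -5.21 (SE 0.24, adjusted p 8.77e-09 by edgeR), a 37.0-fold fall, in wild type and -5.30 (SE 0.25, adjusted p 1.08e-08) in libraries labelled knockout. Exons of Gbx2 share 946 bases with D130058E05Rik on the opposite strand, which was at 8.55 to 17.1 CPM at day 0 and 1.35 to 4.19 CPM at day 7. The sources used here do not state whether counting used strand, so reads of the overlap cannot be told apart.

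Otx2, which opens enhancers used as cells leave the naive state, was at 28.2, 22.7 and 29.3 CPM in wild type at day 0 and at 9.55, 9.47 and 11.1 CPM at day 7. Libraries labelled knockout started higher, at 51.5, 42.5 and 41.3 CPM, and ended at 9.18, 11.8 and 9.09 CPM. The day 7 values of both genotypes overlapped while the day 0 values did not. The log2 change was -1.41 (SE 0.15, adjusted p 1.05e-05 by edgeR), a 2.66-fold fall, in wild type and -2.17 (SE 0.16, adjusted p 3.79e-07), a 4.50-fold fall, in libraries labelled knockout.

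Zic2 had the smallest change. It was at 53.1, 41.7 and 41.7 CPM in wild type at day 0 and at 23.6, 28.4 and 24.8 CPM at day 7, and went from 57.2, 41.0 and 42.4 CPM to 30.6, 28.1 and 25 CPM in libraries labelled knockout. Every day 0 library was above every day 7 library. The log2 change was -0.83 (SE 0.16, adjusted p 0.000676 by edgeR) in wild type and -0.75 (SE 0.16, adjusted p 0.00141) in libraries labelled knockout.

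Pou3f1, a POU factor also known as Oct6, was at 13.4, 10.5 and 19.1 CPM in wild type at day 0 and at 31.1, 29.8 and 49.9 CPM at day 7. The libraries labelled knockout spread widely at day 0, at 22.9, 10.9 and 7.25 CPM, and were at 27.5, 25.3 and 29.8 CPM at day 7. The days did not overlap in either genotype. The log2 change was 1.37 (SE 0.38, adjusted p 0.00802 by edgeR) in wild type and 1.01 (SE 0.38, adjusted p 0.0355) in libraries labelled knockout. The change in libraries labelled knockout was 1.62 without replicate 1 at day 0. Its call was lost without replicate 2 or 3 at day 0 (log2 change 0.87 and 0.70, adjusted p 0.111 in both by edgeR) and without replicate 1, 2 or 3 at day 7 (adjusted p 0.0683, 0.0552 and 0.0833).

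Sall2 was at 2.16, 9.39 and 9.66 CPM in wild type at day 0 and at 46.5, 57.7 and 52.4 CPM at day 7. It went from 13.8, 11.8 and 12.6 CPM to 52.8, 52.9 and 53.8 CPM in libraries labelled knockout. The days did not overlap, and wild type replicate 1 at day 0 stood below the other 5 day 0 libraries. The log2 change was 2.88 (SE 0.40, adjusted p 7.89e-05 by edgeR), a 7.34-fold rise, in wild type and 2.06 (SE 0.39, adjusted p 0.000746), a 4.17-fold rise, in libraries labelled knockout. Without wild type replicate 1 at day 0 the wild type log2 change was 2.46 (SE 0.13, adjusted p 1.20e-07).

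**Figure D1:**
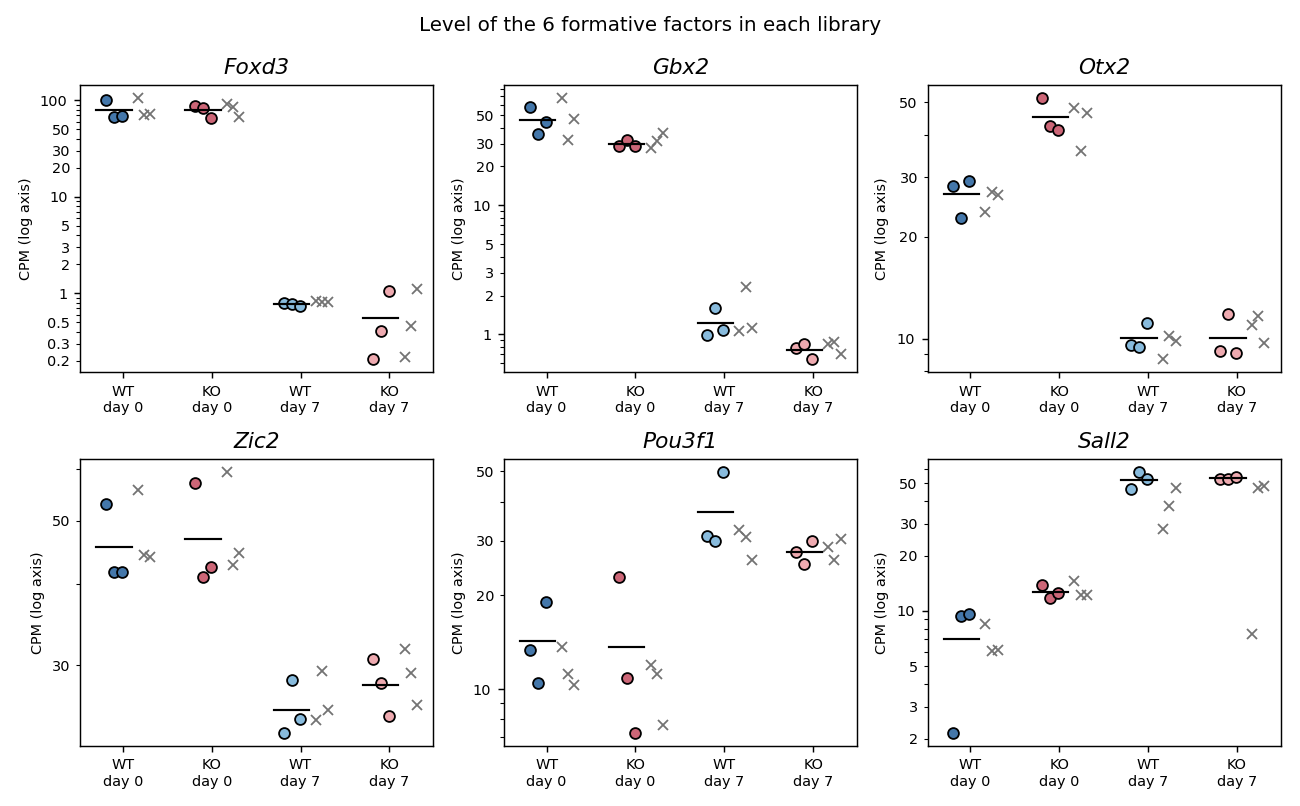
Levels of the 6 genes (CPM, log axis) in each library by group, WT for wild type and KO for libraries labelled knockout; filled circles are replicates 1 to 3 from left to right in the whole-genome table, the line is their mean, and grey crosses are the same libraries in the allele-divided table. Foxd3 and Gbx2 drop to between 0.208 and 1.59 CPM, Otx2 and Zic2 fall less, Pou3f1 and Sall2 rise, and 1 grey cross of Sall2 at day 7 lies at 7.46 CPM.

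Levels of different genes were compared per kilobase of annotated exon. In wild type at day 0 the order was Foxd3 (34.1 ± 8.61 CPM per kilobase, SD, n = 3), Gbx2 (21.2 ± 5.06), Zic2 (15.8 ± 2.29), Otx2 (6.33 ± 0.836), Pou3f1 (3.72 ± 1.14) and Sall2 (1.3 ± 0.78). Only Gbx2 and Zic2, among neighbours in that order, had overlapping libraries. At day 7 the order was nearly turned over: Sall2 (9.61 ± 1.04), Pou3f1 (9.60 ± 2.91) and Zic2 (8.89 ± 0.870) led with overlapping values, followed by Otx2 (2.38 ± 0.224), Gbx2 (0.561 ± 0.147) and Foxd3 (0.329 ± 0.0113). With the knockout label at day 0, Foxd3 led at 34.1 ± 5.10, Zic2 (16.3 ± 3.12) and Gbx2 (13.7 ± 0.834) overlapped, Otx2 was at 10.7 ± 1.32, and Pou3f1 (3.56 ± 2.12) and Sall2 (2.34 ± 0.183) overlapped at the bottom. At day 7 they had Sall2 at 9.78 ± 0.102, overlapping Zic2 at 9.68 ± 0.962, then Pou3f1 at 7.15 ± 0.589 and Otx2 at 2.38 ± 0.367. Gbx2 (0.347 ± 0.0466) and Foxd3 (0.241 ± 0.193) overlapped at the low end. With the longest transcript as the length, Otx2 stood above Gbx2 in libraries labelled knockout at day 0 and Zic2 stood first at day 7 in both genotypes.

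Between the genotypes no member passed edgeR's test at either day, and the nearest was Otx2, higher at day 0. At day 0, 0 of 6 were called, where 0.130% of all genes were, and 2 had an unadjusted p under 0.05, where 11.9% of all genes did. DESeq2, the tool the processing notes name, called 1, Otx2, where it called 2.29% of all genes. Otx2 and Sall2 were higher in every library labelled knockout than in every wild type library, and Gbx2 was lower in every one. Of all genes tested, 15.7% had day 0 groups that did not overlap, 8.48% higher and 7.22% lower.

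The Otx2 difference at day 0, knockout label minus wild type, was 0.76 on the log2 scale (SE 0.15), a 1.69-fold higher level, with an unadjusted p of 0.000403 and an adjusted p of 0.130 by edgeR. The adjusted p was 0.00116 by DESeq2, at a log2 difference of 0.74. Leaving out each library in turn gave 0.64 to 0.83. Gbx2 differed by -0.62 (SE 0.20, adjusted p 0.275 by edgeR and 0.0642 by DESeq2). Sall2 differed by 0.84 (SE 0.39, adjusted p 0.422 by edgeR), and by 0.42 (SE 0.12, adjusted p 0.285) without wild type replicate 1. Foxd3 (0.0027, SE 0.32), Zic2 (0.04, SE 0.15) and Pou3f1 (-0.07, SE 0.38) had overlapping groups, with adjusted p of 1, 0.961 and 0.981 by edgeR.

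At day 7, 0 of 6 were called by edgeR or DESeq2, where edgeR called 0.0260% and DESeq2 0.847% of all genes, and 1 member, Gbx2, had an unadjusted p under 0.05, where 8.18% of all genes did. Gbx2 differed by -0.71 (SE 0.24, adjusted p 0.480 by edgeR) and by -0.45 without wild type replicate 2. Pou3f1 differed by -0.42 (SE 0.37, adjusted p 0.844), by -0.15 without wild type replicate 3 and by -0.07 on the allele-divided counts. Both were lower in every library labelled knockout than in every wild type library. Of all genes tested, 19.5% had day 7 groups that did not overlap, 6.70% higher and 12.8% lower. Otx2 differed by -0.0023 (SE 0.15). For the interaction, the change over 7 days in libraries labelled knockout minus that in wild type, 0 of 6 were called by edgeR or DESeq2, where edgeR called 0.0260% and DESeq2 0.743% of all genes. An unadjusted p under 0.05 was reached by 1 of 6, where 6.86% of all genes did. Otx2 had that p, with a difference of -0.76 (SE 0.21, unadjusted p 0.00471, adjusted p 0.468 by edgeR and 0.111 by DESeq2). The comparisons share the same 12 libraries, so the interaction and the day 0 difference of Otx2 are not separate evidence.

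**Figure D2:**
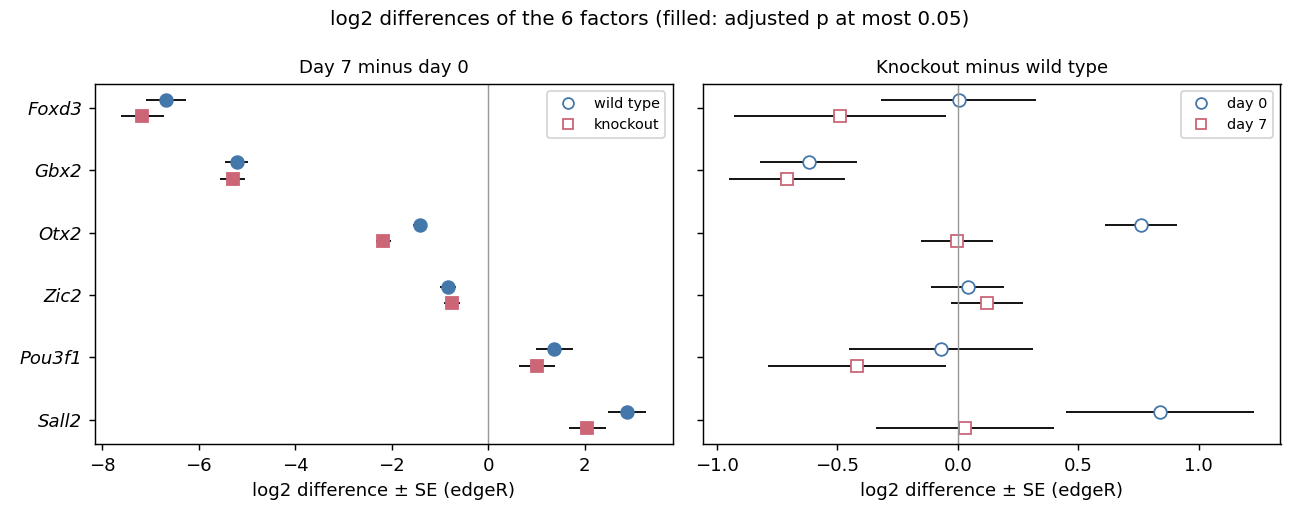
log2 differences with their SE from edgeR for the 6 genes, over 7 days (left, circles wild type, squares libraries labelled knockout) and between genotypes (right, circles day 0, squares day 7); filled symbols have an adjusted p of at most 0.05. All 12 symbols on the left are filled and none on the right is, where Otx2 at day 0 lies at 0.76.

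The form of the Sall2 transcript differed between days. GENCODE lists Sall2-201, which starts at position 52328762 of chromosome 14, and Sall2-202, which starts 12439 bases further along the gene, at 52316323. Each joins its own first exon to the same second exon, and they encode 1004 and 1002 residues that differ at the amino end. Their coding sequences begin as follows, with the bases of the form's own start in capitals and the first shared bases in lower case.
Sall2-201: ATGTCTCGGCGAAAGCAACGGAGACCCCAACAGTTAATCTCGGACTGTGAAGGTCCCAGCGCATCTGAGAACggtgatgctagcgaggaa
Sall2-202: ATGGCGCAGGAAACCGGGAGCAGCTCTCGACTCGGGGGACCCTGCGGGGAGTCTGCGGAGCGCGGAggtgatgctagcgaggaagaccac
The own parts are 72 and 66 bases, and 2940 coding bases are shared. In the whole-genome table Sall2-201 held all 54, 399 and 278 Sall2 reads of wild type replicates 1, 2 and 3 at day 0. At day 7 Sall2-202 held 100%, 97.3% and 100% of them. The libraries labelled knockout gave Sall2-202 27.2%, 1.60% and 0.384% at day 0 and 100%, 99.7% and 86.1% at day 7. No day 0 library overlapped a day 7 library. Most of each form is the shared second exon, so these estimated shares carry a model error that was not measured, and no test was made.

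The allele-divided table, a second set of counts from the same libraries, gave a smaller shift. There Sall2-202 held none of the reads in all 3 wild type libraries at day 0 and 49.0%, 47.7% and 71.0% at day 7. The libraries labelled knockout gave it 9.11%, 33.1% and 6.60% at day 0 and 74.6%, 70.9% and 35.6% at day 7. The days still did not overlap, and the upstream form stayed at 25.4% to 64.4% of Sall2 reads at day 7 rather than near 0. The downstream form therefore took a larger share at day 7 in both tables, from none in wild type and from a minor share in libraries labelled knockout, while the loss of the upstream form is seen in the whole-genome table only. The RefSeq start of the upstream form lies 92 bases inside the GENCODE first exon.

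**Figure D3:**
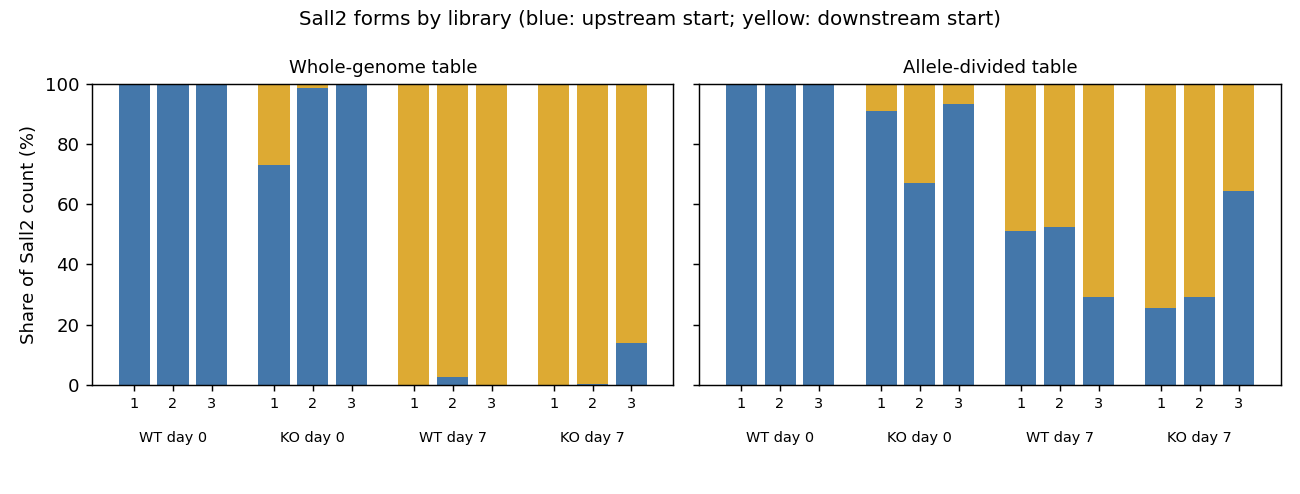
Share of the Sall2 count (%) given to the upstream-start form Sall2-201 (blue) and the downstream-start form Sall2-202 (yellow) in each library, numbered by replicate under its group, in the whole-genome table (left) and the allele-divided table (right). Yellow rises at day 7 in both, to 86.1% or more on the left and to between 35.6% and 74.6% on the right.

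The tables also differed in the gene totals of some members. By rounded ratios, Zic2, Foxd3 and Otx2 differed by no more than 1.25-fold in every library with at least 50 counts in either table. Otx2 in wild type replicate 1 at day 0, with 707 against 565 reads, met this limit only after rounding. Sall2 stayed within that in 6 of 12 libraries, and wild type replicate 1 at day 0 had 54 reads against 203 in the allele-divided table, and the library labelled knockout, replicate 1, at day 7 had 2035 against 276. Pou3f1 did in 9 of 12, and the exceptions had 550 against 281, 671 against 336 and 1288 against 648 reads. Gbx2 did in 6 of 7, with a ratio of 0.704 in the other. Over all genes with at least 50 counts, 78.3% to 82.7% stayed within it, depending on the library. Tested on the allele-divided counts, an alternative chosen after seeing the data, all 6 members kept their direction and their call over 7 days in both genotypes. Sall2 rose by 2.45 (SE 0.52, adjusted p 0.00146 by edgeR) and 1.39 (SE 0.50, adjusted p 0.0297), and Pou3f1 by 1.34 (SE 0.18, adjusted p 4.15e-05) and 1.47 (SE 0.18, adjusted p 2.19e-05). At day 0 the groups of Otx2 and Sall2 still did not overlap, at 36.0 to 48.0 against 23.7 to 27.2 CPM and 12.2 to 14.5 against 6.05 to 8.51 CPM, while those of Gbx2 did. At day 7 those of Pou3f1 overlapped too.

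Other members gave less stable shares of forms. Otx2 has 11 annotated transcripts, and the most abundant one at day 0 in wild type, Otx2-204, held 50.4% ± 12.5 (SD, n = 3), against 31.6% ± 23.8 in libraries labelled knockout. Otx2-201 held 91.8% of the reads in 1 library labelled knockout at day 0 and none in another. The share of Otx2-204 ran from 5.61% to 52.4% between the replicates labelled knockout at day 0. Its group means ranged less widely, from 31.3% to 58.2%. For Gbx2, the 3 libraries labelled knockout at day 7 had 30, 25 and 20 reads, all given to Gbx2-202, a form annotated as a retained intron. Wild type libraries at day 7 had 36, 81 and 0 reads of the coding form Gbx2-201, so that it was given no read in 4 of the 6 day 7 libraries. Gbx2-201 covers 2135 of the 2177 annotated exon bases of the gene, so most of Gbx2-202 is shared with it. At so few reads, these estimated splits cannot show that the coding form was absent.

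The hybrid genome gave the origin of part of the reads. The column names call the parents genome 1 and genome 2 without naming the strain, and shares are reads of genome 2 as a percent of reads given to either. Foxd3, Gbx2 and Zic2 came almost wholly from genome 1. Foxd3 had 2.09%, 1.55% and 1.29% genome 2 reads in wild type at day 0, of 1238 to 1803 reads, and 2.27%, 1.55% and 0.982% in libraries labelled knockout, of 1423 to 1528. At day 7 it had only 6 to 31 such reads a library, of which 2 of 14 (14.3%, exact 95% interval 1.78 to 42.8) were of genome 2 in wild type replicate 3 and none in the other 5. Gbx2 had 0 of 846 reads in wild type and 0 of 618 in libraries labelled knockout at day 0. The exact 95% interval of the largest of its libraries, with 439 reads, reached 0.837%. At day 7 it had only 5 to 16 such reads a library, none of genome 2, and the intervals reached 20.6% to 52.2%. Zic2 had few informative reads, 20 to 83 a library, of which 3 and 1 in 2 day 7 libraries were of genome 2 and none in the other 10. Such one-sided counts were common: 45.8% of 9038 autosomal genes had under 5% genome 2 reads. Whether that comes from the cells or from how reads were assigned was not tested. Intervals and limits on these shares cover counting error only.

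Otx2, Sall2 and Pou3f1 had reads of both genomes. Otx2 was at 53.5% and 58.5% genome 2 in wild type replicates 2 and 3 at day 0 but at 98.6% (exact 95% interval 95 to 99.8, 141 reads) in replicate 1. With the knockout label at day 0 it was at 63.5% and 59.7% in replicates 2 and 3 and at 97.7% in replicate 1 (95.8 to 98.9, 433 reads). Replicate 1 of each genotype thus stood apart from the others of its group at day 0. At day 7 it was at 78.3%, 79.1% and 49.5% in wild type and at 76.1%, 77.6% and 81.5% in libraries labelled knockout, so that replicate 1 no longer stood apart.

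Sall2 was at 21.8%, 12.3% and 12.2% genome 2 in wild type at day 0 and at 25.3%, 39.7% and 30.4% at day 7. The libraries labelled knockout were at 15.4%, 14.2% and 20.3% at day 0 and at 98.6%, 37.8% and 26.4% at day 7. All day 7 libraries were above all day 0 libraries. The value of 98.6% rests on 3 against 206 reads in the library whose Sall2 total also differed 7.37-fold between the tables. The log2 allelic change over 7 days was 1.39 in wild type (SE 0.43, unadjusted p 0.0195, adjusted p 0.257 by edgeR), where 2.24% of 9760 genes were called, and 2.66 in libraries labelled knockout (SE 1.80, adjusted p 0.805), where 2.09% of 9807 were. Without that library the latter was 1.23 (SE 0.42, adjusted p 0.531). Pou3f1 had only 18 to 156 informative reads a library and lay between 0% and 49.1%. No member with enough reads was called in the allelic tests of genotype, where 0.00952% of 10502 genes were called at day 0 and 0.00% of 11032 at day 7.

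**Figure D4:**
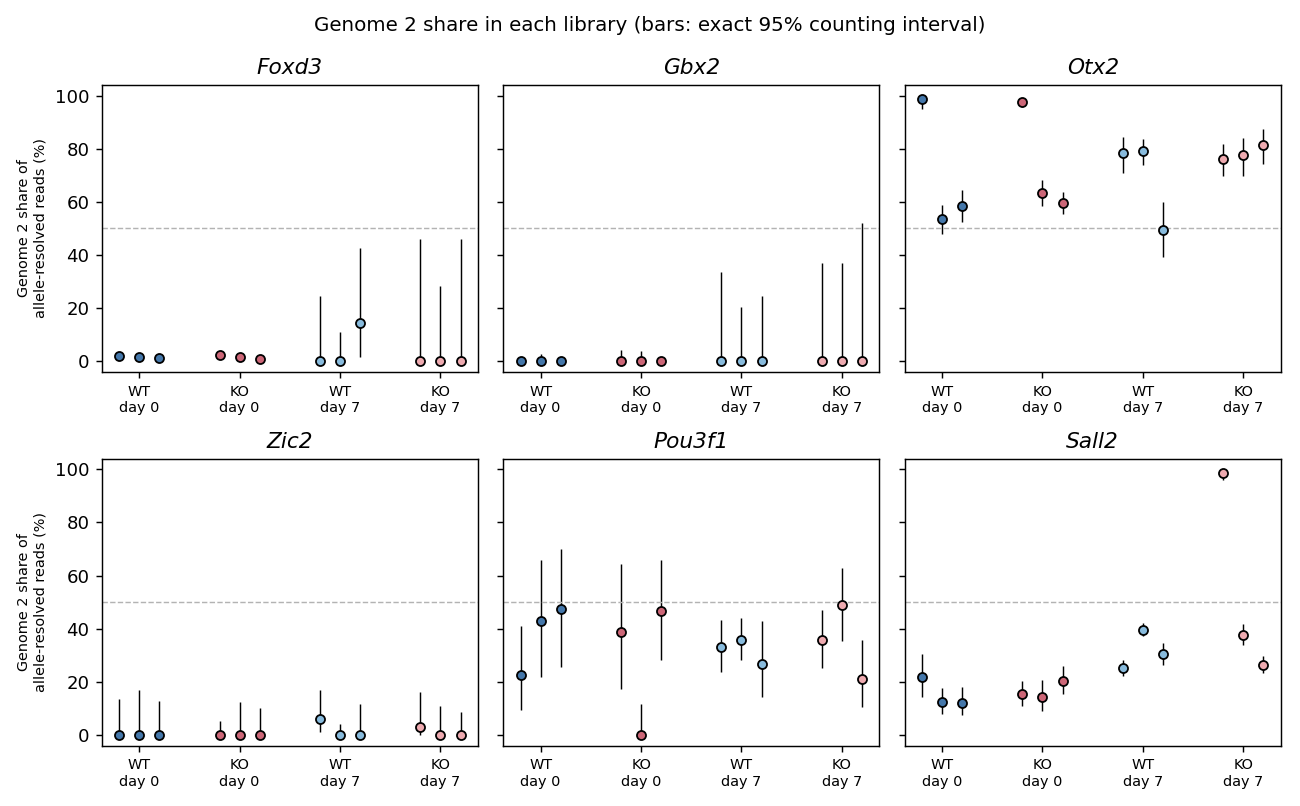
Genome 2 share of allele-resolved reads (%) for each gene in each library, replicates 1 to 3 from left to right within a group, with exact 95% counting intervals and a dashed line at an even share. Foxd3, Gbx2 and Zic2 sit near 0, apart from 1 Foxd3 library at 14.3% with 14 reads, and single libraries of Otx2 (98.6% and 97.7% at day 0) and Sall2 (98.6% at day 7) stand far from the others of their group.

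The 18 other genes listed for the formative and early post-implantation epiblast did not move as 1 block. In wild type 7 rose, 7 fell and 4 did not pass over 7 days, with a median log2 change of 0.03 against 0.01 over all genes tested, of which 32.9% rose and 32.1% fell. With the knockout label 7 rose, 8 fell and 3 did not pass, with a median of -0.17 against -0.02 over all genes, of which 31.1% rose and 32.3% fell. The growth factor gene Fgf5, a widely used formative marker, rose from 0.366 to 25.9 CPM in wild type (log2 change 6.18, adjusted p 1.22e-07 by edgeR) and from 0.246 to 27.5 CPM in libraries labelled knockout (6.82, adjusted p 8.40e-08). Sox11 (5.56 in wild type), the Wnt effector Lef1 (4.68), Tead2 (2.66), the tight junction gene Cldn6 (2.32), Lin28b (1.90) and Sox3 (1.89) rose with it on the log2 scale in both genotypes.

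Tcf15 (-6.59 in wild type) and the chromatin factor gene Utf1 (-5.52) fell most. The ETS factor genes Etv5 (-2.49) and Etv4 (-1.18), the Zic family gene Zic5 (-1.90), and Grhl2 (-0.46) fell with them in both genotypes. Zic5 lies 9758 bases from Zic2 on the opposite strand. Fgf15 fell in libraries labelled knockout (-0.46, adjusted p 0.00461 by edgeR) and was at 0.15 (adjusted p 0.275) in wild type. The DNA methyltransferase genes Dnmt3a and Dnmt3b, with Pim2, passed in neither genotype by edgeR. DESeq2 called Pim2 in wild type (-0.39, adjusted p 0.0335). Between genotypes edgeR called 0 of 18 at either day and 0 for the interaction. DESeq2 called 1 at day 0 and 1 for the interaction, Fgf15 in both (log2 difference 0.40, adjusted p 0.0289, and -0.59, adjusted p 0.0434). An unadjusted p under 0.05 by edgeR was reached by 3, 0 and 1 of the 18 at day 0, at day 7 and for the interaction, where 11.9%, 8.18% and 6.86% of all genes reached it.

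Of 14 relatives of the 6 genes within their families, 10 had enough counts for a test. In wild type 3 rose and 3 fell over 7 days, where 32.9% and 32.1% of all genes did. In libraries labelled knockout 4 rose and 3 fell, where 31.1% and 32.3% of all genes did. The spalt genes Sall1 (-1.29 in wild type, -1.79 in libraries labelled knockout) and Sall4 (-1.03 and -1.01) fell while Sall2 rose. Sall4, which supports pluripotency with Pou5f1, was at 414 CPM in wild type at day 0 and 202 CPM at day 7. Gbx1 fell with Gbx2, from 2.14 to 0.0793 CPM in wild type. Foxd1 and Pou3f4 rose in both genotypes but reached at most 1.17 CPM as a group mean. Zic1 rose from 10 reads, all in 1 library, to 123 over the 3 wild type libraries, and from 0 to 107 in libraries labelled knockout. Pou3f3 rose in libraries labelled knockout by edgeR (1.52, adjusted p 0.0485) but was not called by DESeq2 (adjusted p 0.0503). That rise rests on 12 reads at day 0 and 37 at day 7 over the 3 libraries. The interaction of Pou3f3 with genotype was not called (adjusted p 0.776 by edgeR). Otx1, Foxd2 and Sall3 passed in neither genotype by edgeR, and Crx had no read in any library. DESeq2 called Otx1 in libraries labelled knockout (1.94, adjusted p 0.022). Between genotypes 0 of 10 were called by edgeR at either day or for the interaction, nor by DESeq2 where it gave an adjusted p. An unadjusted p under 0.05 by edgeR was reached by 3, 0 and 1, where 11.9%, 8.18% and 6.86% of all genes reached it.

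**Figure D5:**
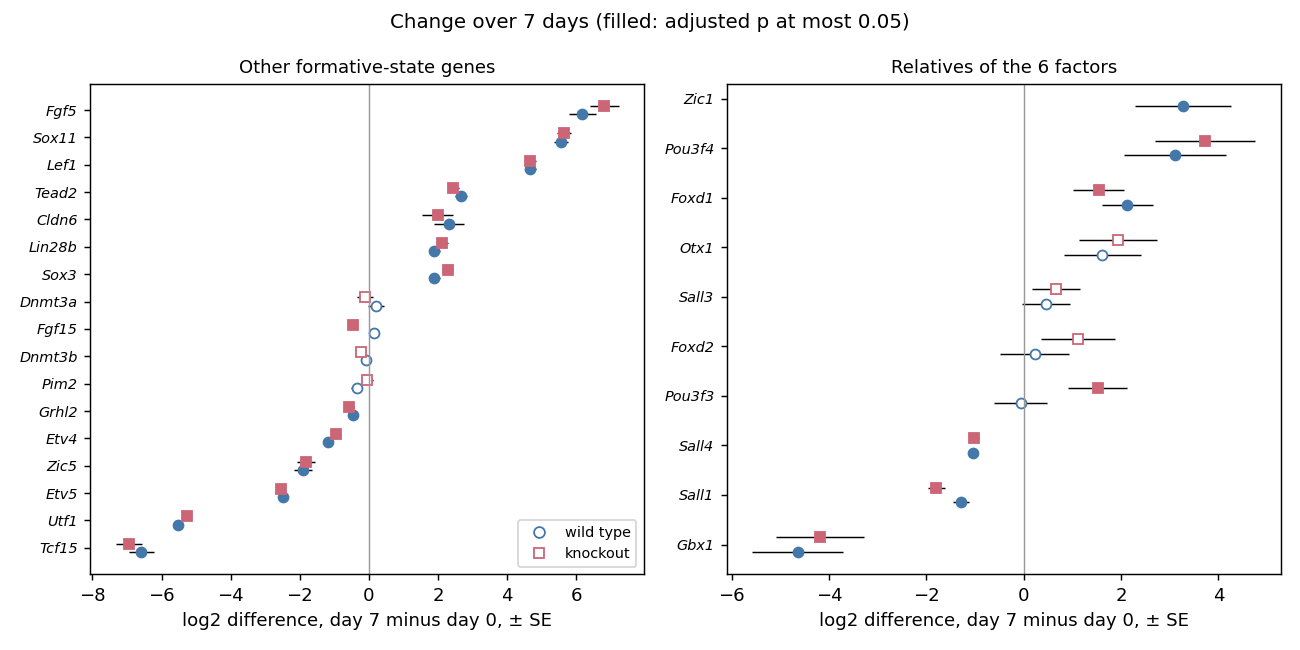
log2 change over 7 days with its SE (edgeR) for the other formative genes named in the text (left) and the tested relatives of the 6 genes (right), circles for wild type and squares for libraries labelled knockout, filled where the adjusted p is at most 0.05. Zic1 in libraries labelled knockout is left out because it had no read at day 0; the formative genes split between rises up to Fgf5 and falls down to Tcf15.

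Genes of neighbouring states were counted beside them. Of all genes tested, 32.9% rose and 32.1% fell in wild type, and 31.1% rose and 32.3% fell in libraries labelled knockout. The list of 16 naive genes also held Pou5f1 and Sox2, which are general pluripotency factors. Of the 16 genes, 14 fell and 1, the adhesion gene Pecam1, rose in each genotype. Among those that fell were Nanog (-5.20 in wild type), Klf4 (-4.56), Pou5f1 (-4.18) and Klf5 (-3.11). Of 12 gastrulation genes 10 rose and 1 fell in wild type and 9 rose and 1 fell in libraries labelled knockout, among them T (8.09 in wild type), Mixl1 (6.44) and Eomes (3.90), with Tdgf1 the one that fell (-2.16). Of 10 tested neural genes, of 14 listed, 8 fell and 1, the intermediate filament gene Nes, rose in each genotype. Tubb3 (-2.38 in wild type), Sox1 (-6.69), Rax (-9.42) and En2 (-3.87) were among those that fell. Rax, at 2.38 CPM in wild type at day 0, had no read at day 7 in either genotype. The size of its log2 change is therefore not a measured one. Of 7 neural crest genes the 6 tested rose in each genotype, among them Msx1 (8.88), Ets1 (7.73), Sox9 (8.84) and Snai2 (7.06), which are also expressed in mesoderm.

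The summed level of 4 mesoderm markers (T, Hand1, Pdgfra, Kdr) went from 4.82 to 7.12 CPM at day 0 to 2090 to 2320 CPM at day 7 in wild type, and from 5.71 to 7.64 CPM to 1780 to 1840 CPM in libraries labelled knockout, with all 4 detected in every group. Hand1 made up most of the day 7 sums, with means of 1950 CPM in wild type and 1510 CPM in libraries labelled knockout. Means of T (135 and 159 CPM), Pdgfra (92.1 and 100) and Kdr (37.6 and 41.3) went the other way between genotypes. EdgeR called none of the 4 between genotypes at day 7, and DESeq2 called Hand1 (-0.36, adjusted p 0.00276). The summed level of the 5 ES cell markers was 230 to 258 CPM in wild type and 259 to 269 CPM in libraries labelled knockout at day 7. The 4 neural markers (Sox1, Pax6, Nes, Tubb3) summed to 403 to 460 CPM in wild type and 353 to 411 CPM in libraries labelled knockout at day 0, and to 209 to 244 and 249 to 261 CPM at day 7, when Sox1 was at 0.0897 and 0.0961 CPM. Nes, most of the day 7 sum, rose from 23 to 150 CPM in wild type and from 14.5 to 171 CPM in libraries labelled knockout, while Sox1, Pax6 and Tubb3 fell. The 3 neural crest markers (Sox10, Tfap2a, Pax3) summed to 2.51 to 4.67 CPM at day 0 and 7.11 to 9.49 CPM at day 7; Sox10 and Tfap2a rose in both genotypes, and Pax3 had no read at day 0. The 6 fibroblast markers (Col1a1, Col1a2, Col3a1, Thy1, Dcn, Postn) summed to 21.9 to 31.0 CPM at day 0, with Col3a1 and Dcn at 0, and to 1050 to 1500 CPM at day 7. Thy1, most of the day 0 sum, went the other way, from 22.2 to 4.39 CPM in wild type and from 25.1 to 4.32 CPM in libraries labelled knockout. The 4 primitive endoderm markers (Gata6, Gata4, Sox17, Sox7) went from 12.1 to 17.6 CPM to 154 to 170 CPM, while Sox7 among them fell from 9.88 to 1.40 CPM in wild type and from 9.71 to 1.19 CPM in libraries labelled knockout. The 4 trophoblast markers (Cdx2, Elf5, Gata3, Tfap2c) went from 44.0 to 69.4 CPM to 125 to 158 CPM, while Tfap2c among them fell from 43.5 to 15.5 CPM and from 56.8 to 18.1 CPM, with Elf5 at 0 in every group but that labelled knockout at day 7. These cell type markers moved with the day as the 6 genes did, and their part in the changes of the 6 was not tested.

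Of the 16 genes on the naive list 2 were called between genotypes at day 0 by edgeR, where 0.130% of all genes were. Esrrb, an orphan nuclear receptor of the naive network, was at 38.5 to 54.5 CPM in wild type and 173 to 315 CPM in libraries labelled knockout at day 0 (log2 difference 2.40, SE 0.22, adjusted p 0.00147 by edgeR). Pecam1 was the other (0.46, SE 0.07, adjusted p 0.0431). In the fit of only the 6 libraries compared neither was called (adjusted p 0.0884 and 0.610 by edgeR), nor on allele-divided counts (0.0590 and 0.0567). Pecam1 also lost its call when any 1 of the 12 libraries was left out (adjusted p 0.0566 to 0.127), whereas Esrrb kept it in all 12 such fits (0.0013 to 0.0105). Whether these differences are tied to that of Otx2 was not tested.

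By Pearson correlation of log2 CPM over the 12 libraries, among 10217 well-expressed genes, the closest to Foxd3 were Dnmt3l, Chtf18 and Sfrp5 (r 0.994 for each). Close to Gbx2 were Rogdi (0.998) and Nip7 (0.997), and closest to Otx2 were Mia2 (0.987), Cds1 (0.984) and U2surp (0.984). Pdcd11 (0.979), Oxnad1 (0.976) and Sgk1 (0.975) were closest to Zic2. For the rising genes they were Utp14b (0.992), Phf21a (0.990) and Col8a2 (0.989) for Sall2 and Txnrd3 (0.942) and Hspa5 (0.937) for Pou3f1. These values mostly describe the split between days that the libraries share. Among the 6, Foxd3 and Gbx2 were closest to each other (0.98), and Sall2 and Pou3f1 reached 0.73.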

How the data were processed

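PolyA-selected RNA of 12 libraries was sequenced. The authors used HISAT2 2.1.0 and StringTie 1.3.3 with FastQC 0.11.3, Trimmomatic 0.36 and SAMtools 0.1.19, and also DESeq2 1.32.0, per the submitters' processing notes, which name mm10 and GRCm38. Settings, annotation release and strand use were not given in the sources used here. What the authors deposited were expected counts (whole numbers, taken to be StringTie's estimates, not normalized, and called reads in the text) per gene and transcript, for all reads and divided into genome 1, genome 2 and unassigned reads. Identifiers were matched to GENCODE vM21 (99.38% of 55487, 96.13% with the same symbol).

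Counts were tested as deposited with edgeR 4.0.16 in R 4.3.3: filterByExpr by group, TMM, 1 quasi-likelihood fit of 4 groups over all 12 libraries, Benjamini-Hochberg adjustment over all genes tested, threshold 0.05. SE is the absolute log2 change divided by the square root of the F statistic. DESeq2 1.42.0 was an alternative tool. Allelic balance was tested with edgeR on genome 1 and genome 2 counts with a block per library, over genes with 20 or more such reads in each library of the comparison, and members with under 10 genome 2 reads in a group were left out. Scripts were tested on simulated data. Library totals ran from 25190483 to 69079368. Replicates differed by more than sampling noise (chi-square per degree of freedom 24.6 to 60.7), so depth alone did not set the precision.

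The members and gene lists were chosen with earlier results of these data known. Named genes are the 6 members, every gene of the formative and family lists, up to 4 genes with the smallest adjusted p of each other list, the 3 genes closest to each member and Sirt7, apart from some that are not reported here. Nes, named as the 1 neural gene that rose, and the transcripts and libraries singled out were chosen after their values were seen. Promoters are from RefSeq.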

Additional observations from a re-analysis of the deposited data

Results flagged for a closer look

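Among the genes named, edgeR called 1 as differing between the genotypes in its change over 7 days. The log2 change of Esrrb was -3.69 (SE 0.24) in wild type and -6.61 (SE 0.27) in libraries labelled knockout, and the interaction was -2.92 (SE 0.32, adjusted p 0.0152 by edgeR). It was at 38.5 to 54.5 CPM in wild type and at 173 to 315 CPM in libraries labelled knockout at day 0, and at 2.86 to 3.74 against 2.26 to 2.58 CPM at day 7. The call was lost with the replicate block (-2.87, adjusted p 0.0716), with the replicate block by genotype (-2.88, 0.280), on allele-divided counts (-3.65, 0.207) and without replicate 3 of the libraries labelled knockout at day 7 (-2.99, 0.0580), all by edgeR. Its other alternatives kept the call, by DESeq2 at -2.90. None of the 6 formative factors met this test by edgeR or DESeq2. Fgf15 (-0.59, adjusted p 0.0434), Pecam1 (-0.51, 7.87e-05) and the fibroblast marker Col1a2 (-0.97, 0.0147) met it by DESeq2 and not by edgeR.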

How the results depend on the processing

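All 6 members kept direction and call over 7 days in wild type under every alternative. In libraries labelled knockout the other 5 did, and Pou3f1 lost its call in the fit of only the 6 libraries compared (1.01, adjusted p 0.0585 by edgeR; range over its alternatives 2.19e-05 to 0.0585) and in 5 fits without 1 library.

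Between genotypes, DESeq2 called 1 member at day 0 and 441, 163 and 143 genes at day 0, at day 7 and for the interaction, against 25, 5 and 5. The replicate block called 6, 2 and 0, and the replicate block by genotype 0 for the interaction. Over all genes, same-numbered libraries did not deviate together (18 pairs, r -0.084 to 0.061). With 3 libraries a group this cannot show that the numbers do not pair them. In its genome 2 share, Otx2 of replicate 1 stood apart in both genotypes at day 0 but not at day 7. The block changed no call of a member, though those of Esrrb (interaction) and Pecam1 (day 0, adjusted p 0.108 by edgeR) were lost. Fits of only the 6 libraries compared called 0 at day 0 and 9 at day 7, the allele-divided counts 16 at day 0 and 8 for the interaction, and no filter 8 for the interaction. Without 1 library each the counts ran from 6 to 55, 5 to 13 and 0 to 15.

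Uncalled values near 0 changed sign. Foxd3 at day 0 was -0.01 by DESeq2 and with RLE size factors, -0.0015 without a filter, -0.02 on allele-divided counts and -0.0025 with only the 6 libraries. Otx2 at day 7 was 0.0043 by DESeq2, 0.0015 with RLE, 0.00074 with the replicate block, 0.17 on allele-divided counts and 0.03 with only the 6 libraries. On allele-divided counts Sall2 at day 7 was -0.14 and the Pou3f1 interaction 0.12. Without 1 library each, day 0 differences ran from -0.66 to 0.24 for Pou3f1, -0.11 to 0.23 for Foxd3 and -0.13 to 0.17 for Zic2. Those at day 7 ran from -0.14 to 0.07 for Otx2 and -0.05 to 0.10 for Sall2, and interactions from -0.67 to 0.26 for Pou3f1, -0.05 to 0.28 for Zic2 and -0.29 to 0.17 for Gbx2. Allelic differences ran from -0.85 to 1.53 (Otx2), -0.39 to 0.21 (Foxd3) and -0.02 to 0.50 (Sall2) at day 0, -0.02 to 0.95 (Otx2) and -0.25 to 0.62 (Pou3f1) at day 7, and over days -1.34 to 0.92 (Otx2, wild type), -0.81 to 0.02 (Pou3f1, wild type) and -1.01 to 1.18 (Otx2, libraries labelled knockout).

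Per kilobase of longest transcript, Otx2 was at 10.3 CPM (wild type) and 17.4 CPM (knockout label) at day 0, then 3.88 and 3.87, Zic2 at 18.7 in wild type at day 0 and 10.5 and 11.4 at day 7, and Sall2 at 10.3 in libraries labelled knockout at day 7. The causes were not tested.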
